A study of Homo sapiens with 9 samples.

Results

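The genes described here are 10 transcription factors and cofactors of red cell development: GATA1, GATA2, KLF1, TAL1, LMO2, LDB1, NFE2, ZFPM1, GFI1B and LYL1. They were chosen by name, as the known erythroid and haematopoietic regulators, with earlier results of these data known. They make up 10 of the 58347 genes of the deposited count table. All 10 passed the filter on low counts, as did 23675 genes in all.

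K562 is a human erythroleukaemia line that makes embryonic and fetal haemoglobin. All cells here were K562-FIRE cells, which carry dCas9 (with 2A Blast), MS2-Fkbp(1x) (with 2A Hygro) and SS18-Frb (with PGK Puro), the last a fusion of a subunit of BAF chromatin remodelling complexes. The EF1a promoter drives all these constructs, and every group carries them. The guide RNA was directed to the HBG1 promoter or was non-targeting, and cells received 10 nM rapamycin or DMSO for 24 h. Rapamycin joins Fkbp to Frb and also inhibits mTORC1 in any cell. The 9 libraries are HBG1 sgRNA with DMSO (n = 3), HBG1 sgRNA with rapamycin (n = 3), non-targeting sgRNA with rapamycin (n = 2) and non-targeting sgRNA with DMSO (n = 1). Whether each line was 1 clone, and whether replicates were separate cultures, is not given in the sources used here, so p-values measure the spread between these libraries only.

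In erythroid cells GATA1 binds GATA motifs and works in a complex with TAL1, a basic helix-loop-helix protein that binds E-boxes, and the bridging proteins LMO2 and LDB1. GATA2 is the earlier GATA factor, which GATA1 replaces as progenitors mature, and ZFPM1 (FOG1) is the GATA1 cofactor needed for much of that exchange. LYL1 is the close relative of TAL1. KLF1 binds CACC boxes at globin and red cell membrane genes, NFE2 is the p45 subunit of the factor NF-E2 that binds the globin control regions, and GFI1B is a repressor that recruits LSD1 and CoREST.

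These factors are known to bind one another's regulatory DNA. The stretches before their start sites are thus shown for GATA1, which rose with rapamycin, and for members whose stretch holds AGATAA or TGATAA. These are forms of the GATA motif, and other forms were not searched. Promoter windows of 300 bases, from 250 before to 50 after a start site, were taken from RefSeq (GRCh38.p14) and were found for 8 of the 10 genes, in 11 entries. NFE2 and LMO2 have no entry. The 250 bases before the start are printed 5′ to 3′ on the gene's strand, and capitals mark AGATAA or TGATAA on either strand.
GATA1, chrX:48786340-48786589, plus strand: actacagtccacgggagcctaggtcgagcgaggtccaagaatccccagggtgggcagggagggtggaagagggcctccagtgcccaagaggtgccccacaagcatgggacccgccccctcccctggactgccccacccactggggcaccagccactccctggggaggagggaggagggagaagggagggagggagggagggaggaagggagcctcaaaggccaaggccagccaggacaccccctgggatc
KLF1, chr19:12887202-12887451, minus strand: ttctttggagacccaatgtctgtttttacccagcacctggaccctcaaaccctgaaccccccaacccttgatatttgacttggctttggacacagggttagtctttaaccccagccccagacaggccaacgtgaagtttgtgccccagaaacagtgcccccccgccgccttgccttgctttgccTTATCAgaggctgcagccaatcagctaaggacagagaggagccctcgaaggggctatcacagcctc
TAL1, upstream of 2 starts, chr1:47232336-47232585, minus strand: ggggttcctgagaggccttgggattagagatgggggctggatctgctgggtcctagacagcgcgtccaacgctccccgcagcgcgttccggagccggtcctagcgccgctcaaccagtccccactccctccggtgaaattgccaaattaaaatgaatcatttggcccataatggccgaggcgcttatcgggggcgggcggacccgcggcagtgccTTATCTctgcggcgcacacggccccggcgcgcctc
GFI1B, second of 2 starts, chr9:132978444-132978693, plus strand: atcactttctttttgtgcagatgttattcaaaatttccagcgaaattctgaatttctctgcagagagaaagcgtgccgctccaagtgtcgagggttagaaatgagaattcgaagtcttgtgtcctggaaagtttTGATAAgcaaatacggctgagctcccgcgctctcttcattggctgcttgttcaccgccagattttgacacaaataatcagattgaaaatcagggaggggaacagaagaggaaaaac
LYL1, chr19:13102859-13103108, minus strand: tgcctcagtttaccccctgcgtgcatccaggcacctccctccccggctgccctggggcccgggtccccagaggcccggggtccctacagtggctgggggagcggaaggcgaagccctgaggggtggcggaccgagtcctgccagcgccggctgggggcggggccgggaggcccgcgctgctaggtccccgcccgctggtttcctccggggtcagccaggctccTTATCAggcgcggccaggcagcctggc

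AGATAA or TGATAA occurred in 4 of the 11 windows, 1 each of KLF1, TAL1, GFI1B and LYL1, against 16.3% of all 35116 windows. Counted from the start, the match lay at -66 to -61 in KLF1, at -35 to -30 in TAL1 and at -116 to -111 in GFI1B. LYL1 had one at -27 to -22 and another at 3 to 8, past the printed stretch. The CACC-like motif CCNCNCCC, searched on both strands, was present in 8 of the 11 windows, from 7 of the 8 genes, and in 56.2% of all windows. TGAGTCA, the core that NF-E2 shares with AP-1, was in none of the 8 genes' windows and in 4.95% of all. These are matches of letters and not measured binding.

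Libraries held 19797409 to 31619671 counts. Member genes had 1728 to 8585 counts per library, so counting error alone was 1.08% to 2.41% of a value. Replicate 1 of both HBG1 sgRNA groups stood apart from replicates 2 and 3, with a chi-square per gene of 11.5 to 12.7 against 3.93 and 5.95 between replicates 2 and 3. All 15 erythroid markers on the list used here were expressed at a mean of at least 1 CPM, which are counts scaled to library size. Of 14 megakaryocytic markers 6 were, with PF4 and SELP at 0 counts in all libraries, and of 14 myeloid markers 6 were.

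HBG1 itself, under the targeted promoter, went from 296 ± 150.2 CPM in DMSO to 1930 ± 469 CPM in rapamycin with the HBG1 sgRNA (SD, n = 3 each, log2 change 2.71, edgeR adjusted p 7.23e-05), and at 8233 CPM under DMSO with the non-targeting sgRNA. Its near-identical neighbour HBG2 can share reads with it.

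With the HBG1 sgRNA, 2 of the 10 factors rose with rapamycin and none fell in the fit without pairing. NFE2 rose 1.31-fold and GATA1 1.24-fold. LMO2 and GFI1B, at 1.19-fold and 1.17-fold, did not pass in that fit but did when libraries were paired by replicate number and in some fits without pairing. KLF1, TAL1, LDB1, LYL1, ZFPM1 and GATA2 did not pass with or without pairing. Across all genes 6.80% were called, 2.75% as higher and 4.05% as lower, and with pairing 17.1%, 7.43% and 9.62%. The members' median log2 change was 0.15, against 0.02 over all genes tested. The RNA came from whole cultures, so a change in the share of cells that express a gene and a change in RNA per cell cannot be told apart.

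**Figure D1:**
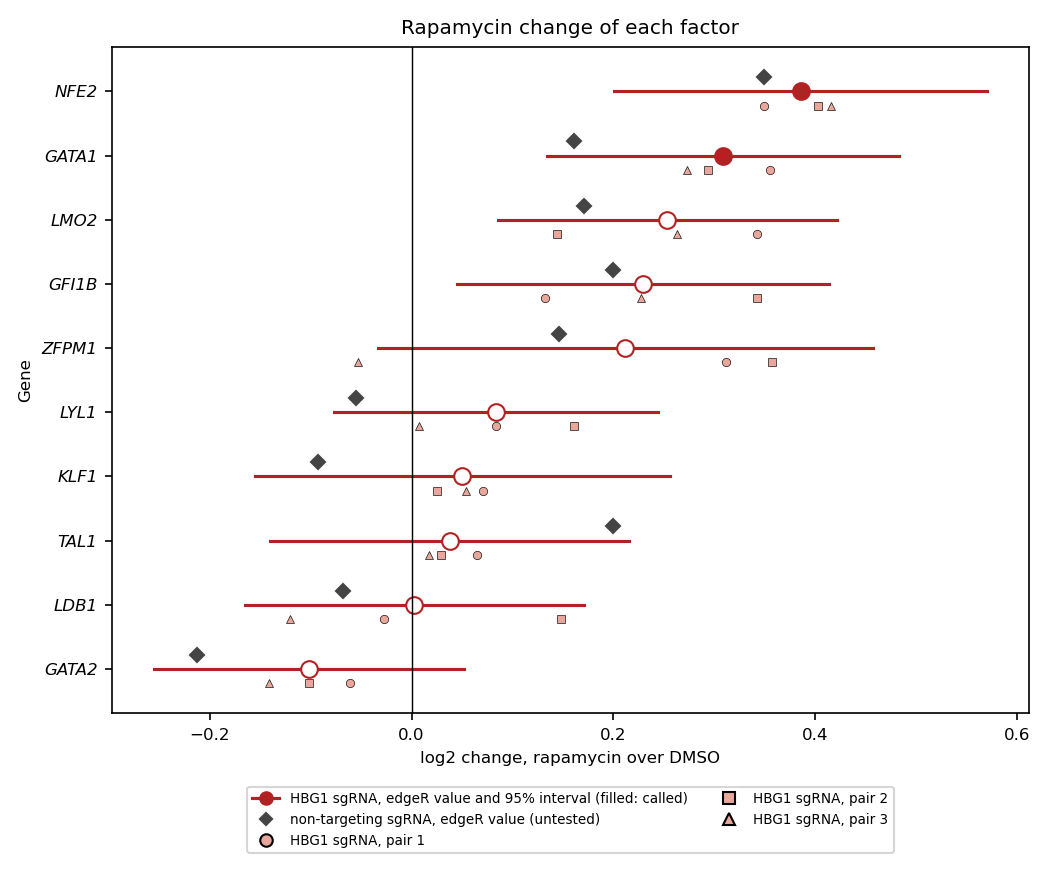
Rapamycin change of each factor on the log2 scale (x axis), ordered by the edgeR value with the HBG1 sgRNA (large circles with 95% intervals, filled where called at adjusted p under 0.05). Small symbols are the 3 HBG1 sgRNA replicate pairs and diamonds the untested value with the non-targeting sgRNA. Only NFE2 and GATA1 are filled, at 0.39 and 0.31.

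Between the GATA factors, GATA1 rose and GATA2 did not pass the test. GATA1 (ENSG00000102145, chromosome X, 48786554 to 48794311, plus strand) stood at 214, 190.0 and 191 CPM under DMSO in HBG1 sgRNA replicates 1, 2 and 3. Under rapamycin it stood at 274, 233 and 231 CPM. The non-targeting sgRNA libraries were at 201 CPM under DMSO and 233 and 217 CPM under rapamycin. All 5 rapamycin libraries were above all 4 DMSO libraries, although only narrowly, since 217 and 214 CPM are neighbours. Its log2 fold change with the HBG1 sgRNA was 0.31 (SE 0.08, edgeR adjusted p 0.0326), a ratio with a 95% interval of 1.10 to 1.40, and it was higher in 3 of 3 pairs. With pairing the adjusted p was 7.29e-04. Without pairing the call was lost when HBG1 sgRNA DMSO replicate 2 (adjusted p 0.146), DMSO replicate 3 (0.130), rapamycin replicate 1 (0.0853), rapamycin replicate 3 (0.0567) or non-targeting rapamycin replicate 2 (0.0501) was left out.

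GATA2 (ENSG00000179348, chromosome 3, 128479427 to 128493185, minus strand) stood at 135, 149.5 and 144 CPM under DMSO and 129, 139 and 131 CPM under rapamycin with the HBG1 sgRNA. Non-targeting sgRNA libraries were at 152 CPM under DMSO and 128 and 135 CPM under rapamycin. It was lower under rapamycin in 3 of 3 HBG1 sgRNA pairs, but the groups overlap, because replicate 2 under rapamycin exceeds replicate 1 under DMSO. The log2 fold change was -0.10 (SE 0.07, edgeR adjusted p 0.471), with an interval for the ratio of 0.838 to 1.04.

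The ratio of GATA1 to GATA2 does not depend on library scaling. Per kilobase of annotated exon it was 4.72, 3.78 and 3.93 under DMSO and 6.30, 4.96 and 5.24 under rapamycin with the HBG1 sgRNA. With the non-targeting sgRNA it was 3.92 under DMSO and 5.40 and 4.78 under rapamycin. The 5 rapamycin libraries all had the higher ratios. Between the HBG1 sgRNA groups the ratio rose 1.33-fold, from 4.14 ± 0.505 to 5.50 ± 0.703 (SD, n = 3 each), with a two-sided exact permutation p of 0.1, the smallest that 20 labelings allow. It is 1 of 5 ratios computed after the values were seen, and adjusted over them (Benjamini-Hochberg) the exact p is 0.125. The ratio of GATA1 to TAL1 went from 5.75 ± 0.185 to 6.93 ± 0.302 (SD, n = 3 each, exact p 0.1). With the non-targeting sgRNA that ratio was 5.91 under DMSO and 5.48 and 6.10 under rapamycin, so the libraries of that guide overlap.

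**Figure D2:**
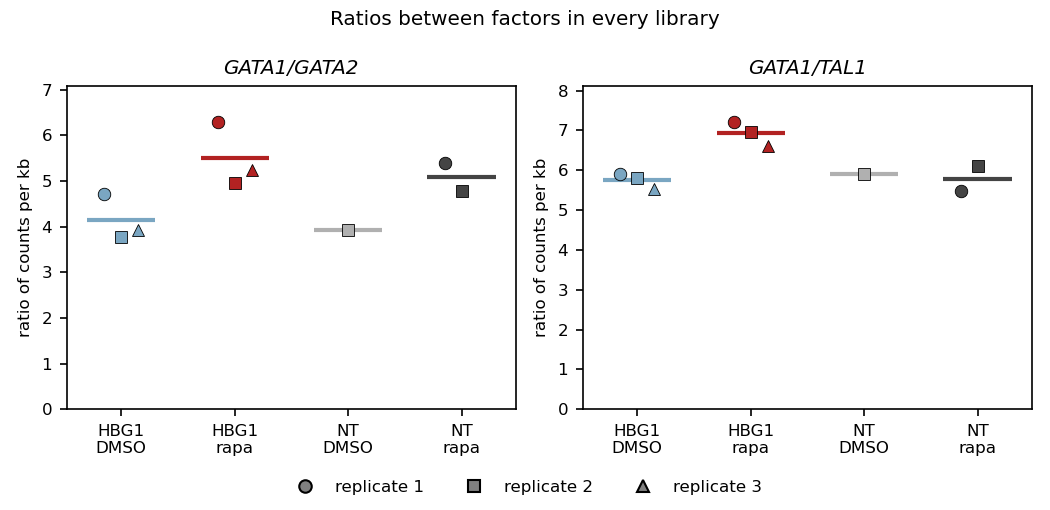
Ratio of GATA1 to GATA2 (left) and of GATA1 to TAL1 (right) in counts per kb of exon (y axes, from 0) for each library by guide (HBG1 or non-targeting, NT) and treatment (rapa, rapamycin). Symbols are replicates and lines group means. GATA1 to GATA2 is 4.78 or more in every rapamycin library and 4.72 or less in every DMSO library.

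ZFPM1 (ENSG00000179588, chromosome 16, 88453317 to 88537016, plus strand), the partner of GATA1, had the largest SD relative to its mean among the members in both HBG1 sgRNA groups. It stood at 111, 86.3 and 99.1 CPM under DMSO and 137, 111 and 95.5 CPM under rapamycin with the HBG1 sgRNA, and at 102 CPM under DMSO and 117 and 108 CPM under rapamycin with the non-targeting sgRNA. The HBG1 sgRNA groups overlap, and pair 3 went the other way (log2 change -0.05) from pairs 1 and 2 (0.31 and 0.36). The log2 fold change was 0.21 (SE 0.12, edgeR adjusted p 0.322, and 0.0528 with pairing). Without HBG1 sgRNA rapamycin replicate 1 it was 0.06, adjusted p 0.791.

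In the complex that GATA1 shares with TAL1, LMO2 and LDB1, the members differed in their values. LMO2 (ENSG00000135363, chromosome 11, 33858576 to 33892289, minus strand) stood at 84.3, 81.1 and 85.0 CPM under DMSO and 107, 89.6 and 102 CPM under rapamycin with the HBG1 sgRNA. In cells with the non-targeting sgRNA it was at 85.9 CPM under DMSO and 95.6 and 97.8 CPM under rapamycin. All 5 rapamycin libraries were above all 4 DMSO libraries. LMO2 had a log2 fold change of 0.25 (SE 0.08, edgeR adjusted p 0.0672), and with pairing it was 0.26 (adjusted p 0.00914). Without pairing LMO2 also passed by DESeq2 (adjusted p 0.0304), with upper-quartile scaling in edgeR (0.0395) and without HBG1 sgRNA rapamycin replicate 2 (0.0299).

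TAL1 (ENSG00000162367, chromosome 1, 47216290 to 47232220, minus strand) stood at 138, 124 and 131 CPM under DMSO and 144, 127 and 133 CPM under rapamycin with the HBG1 sgRNA. The non-targeting sgRNA gave 129 CPM under DMSO and 162 and 135 CPM under rapamycin. The 162 CPM of the first of these rapamycin libraries is the highest TAL1 value of all libraries, and elsewhere the treatments overlap. Its log2 fold change with the HBG1 sgRNA was 0.04 (SE 0.08, edgeR adjusted p 0.850), with an interval for the ratio of 0.908 to 1.16. An antisense gene, AL135960.1, overlaps 14.8% of the annotated TAL1 exon bases, so some counts may not be of TAL1 if strand was not used.

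LDB1 (ENSG00000198728, chromosome 10, 102107560 to 102120453, minus strand) ran from 162 to 195 CPM over the 9 libraries, and both extremes are HBG1 sgRNA rapamycin libraries. The log2 fold change was 0.0029 (SE 0.08, edgeR adjusted p 0.990), with an interval for the ratio of 0.892 to 1.13. LYL1 (ENSG00000104903, chromosome 19, 13099033 to 13103161, minus strand) stood at 213, 196 and 215 CPM under DMSO and 226, 219.7 and 216 CPM under rapamycin with the HBG1 sgRNA. These groups do not overlap, although 215 and 216 CPM are neighbours, while the non-targeting sgRNA libraries were at 216 CPM under DMSO and 191 and 224 CPM under rapamycin. The log2 fold change of LYL1 was 0.08 (SE 0.08, edgeR adjusted p 0.589).

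Among the 3 factors with other DNA motifs, NFE2 had the largest change of the 10 genes. NFE2 (ENSG00000123405, chromosome 12, 54292111 to 54301121, minus strand) stood at 256, 213 and 209 CPM under DMSO and 326, 282 and 279 CPM under rapamycin with the HBG1 sgRNA. With the non-targeting sgRNA it was at 227 CPM under DMSO and 289 and 288 CPM under rapamycin. Every rapamycin library of either guide was above every DMSO library. The log2 fold change was 0.39 (SE 0.09, edgeR adjusted p 0.0144), with an interval for the ratio of 1.15 to 1.48, and the 3 pairs gave 0.35, 0.40 and 0.41. With pairing the adjusted p was 8.07e-05. Without pairing the call was lost without HBG1 sgRNA DMSO replicate 2 (adjusted p 0.0860) or replicate 3 (0.0806).

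GFI1B (ENSG00000165702, chromosome 9, 132944000 to 132991687, plus strand) stood at 101, 84.2 and 90.9 CPM under DMSO and 111, 107 and 106 CPM under rapamycin with the HBG1 sgRNA. The non-targeting sgRNA gave 92.2 CPM under DMSO and 115 and 96.6 CPM under rapamycin. The HBG1 sgRNA groups do not overlap, while 96.6 CPM lies below DMSO replicate 1 of the HBG1 sgRNA. GFI1B had a log2 fold change of 0.23 (SE 0.09, edgeR adjusted p 0.134), and with pairing it was 0.24 (adjusted p 0.0130). Without pairing GFI1B also passed when replicate 1 of both HBG1 sgRNA groups was left out (adjusted p 0.0383). TSC1, on the opposite strand, overlaps 5.72% of the GFI1B exon bases.

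KLF1 (ENSG00000105610, chromosome 19, 12884422 to 12887199, minus strand) stood at 181, 147 and 152 CPM under DMSO and 189.8, 149 and 158 CPM under rapamycin with the HBG1 sgRNA. With the non-targeting sgRNA it was at 153 CPM under DMSO and 148 and 139.9 CPM under rapamycin. Replicate 1 is the highest library in both HBG1 sgRNA groups, and the groups overlap. KLF1 had a log2 fold change of 0.05 (SE 0.10, edgeR adjusted p 0.822), with an interval for the ratio of 0.898 to 1.19.

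**Figure D3:**
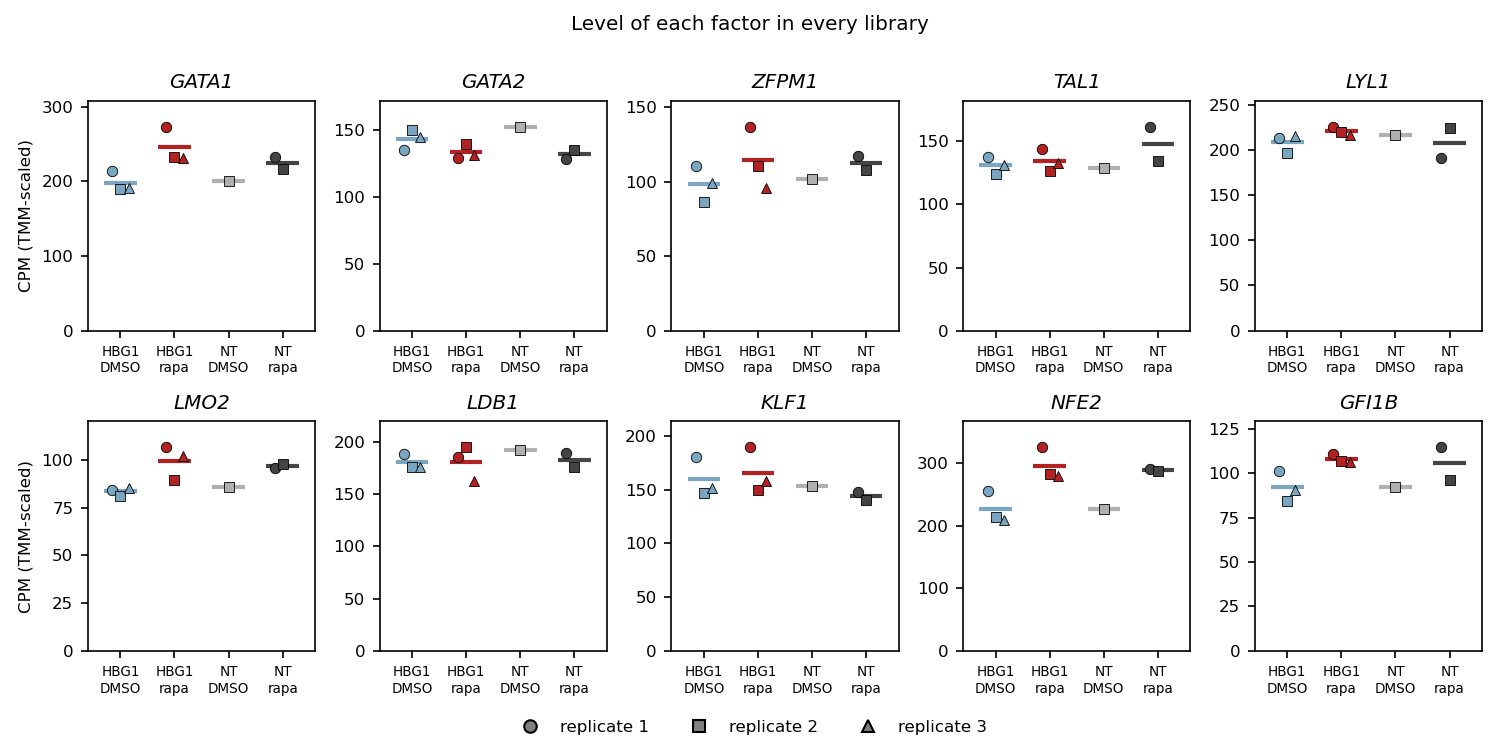
TMM-scaled CPM of each factor (y axes, from 0) in every library by guide (HBG1 or non-targeting, NT) and treatment (rapa, rapamycin). Symbols are replicates and lines group means. For NFE2, GATA1 and LMO2 all rapamycin libraries lie above all DMSO libraries.

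By overlap of libraries, 5 of the 10 members (GATA1, NFE2, LMO2, GFI1B and LYL1) had all 3 HBG1 sgRNA rapamycin libraries above all 3 DMSO libraries, against 12.2% of all genes tested, and none had them below (13.1% of all). Over both guides, 3 members had all 5 rapamycin libraries above all 4 DMSO libraries, against 6.38% of all genes, and none had them below (8.29% of all). An additive edgeR fit of guide and treatment over the 9 libraries called 4 members as higher and none as lower (13.8% of all genes, 5.98% higher and 7.80% lower). They were NFE2 (log2 change 0.37, adjusted p 0.00130), GATA1 (0.26, 0.0129), LMO2 (0.23, 0.0227) and GFI1B (0.22, 0.0414). Of the rest, GATA2 had -0.14 (adjusted p 0.144) and ZFPM1 0.19 (0.190).

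Levels were compared between genes only per kilobase of GENCODE 29 exon. That length merges all annotated exons of a gene, which need not be those expressed here, and the annotation behind the counts is not given. The order below depends on these lengths. In HBG1 sgRNA DMSO libraries GATA1 was highest, at 132 ± 9.01 CPM per kb (SD, n = 3), followed by KLF1 at 99.2 ± 11.3 and NFE2 at 91.6 ± 10.5, whose libraries overlap. LYL1 (66.8 ± 3.28) and LDB1 (64.6 ± 2.57) came next and overlapped. GATA2 (32.0 ± 1.68), LMO2 (26.8 ± 0.667) and TAL1 (23.0 ± 1.18) followed without overlap, and ZFPM1 (16.1 ± 1.98) and GFI1B (15.1 ± 1.40) overlapped at the lower end. The relative LYL1, at about the level of LDB1, was thus above TAL1 in level per length in these cells. Under rapamycin NFE2, at 119.7 ± 10.6 CPM per kb (SD, n = 3), had the higher mean than KLF1, at 103 ± 13.2, with overlapping libraries. LMO2 and GATA2 also changed places, at 32.0 ± 2.85 and 29.9 ± 1.22, again with overlap.

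**Figure D4:**
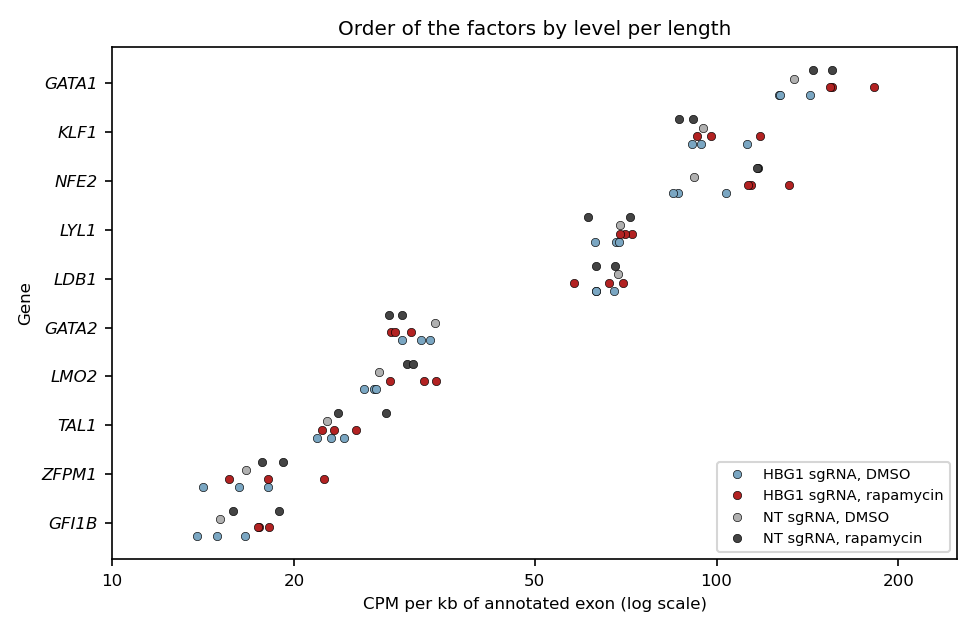
CPM per kb of annotated exon (x axis, log scale) for each factor in every library, coloured by guide and treatment and ordered by the mean of the HBG1 sgRNA DMSO libraries. GATA1 is highest at 132 CPM per kb there and GFI1B lowest at 15.1.

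The guides were then compared, to see whether these regulators differ between the cells as HBG1 does. Under rapamycin none of the 10 members passed between guides, in 3 against 2 libraries (edgeR, 0 at an unadjusted p under 0.05, and 0 and 0 by DESeq2), against 0.0296% of all genes (0.0169% higher and 0.0127% lower). HBG1 itself was lower with its own sgRNA there (log2 difference -2.20, adjusted p 0.00499). The largest differences were KLF1, at a ratio of 1.15 (interval 0.982 to 1.35, edgeR adjusted p 0.789), and TAL1, at 0.907 (0.790 to 1.04, adjusted p 0.806). GATA1 had a ratio of 1.09 (0.954 to 1.25) and NFE2 of 1.02 (0.887 to 1.18). Under DMSO, set against a single non-targeting library and untested, log2 differences ran from -0.09 for GATA2 to 0.06 for KLF1.

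With the non-targeting sgRNA, rapamycin gave untested log2 changes of 0.35 for NFE2, 0.20 for GFI1B, 0.20 for TAL1, 0.17 for LMO2, 0.16 for GATA1 and 0.15 for ZFPM1. Negative values were -0.06 for LYL1, -0.07 for LDB1, -0.09 for KLF1 and -0.21 for GATA2. Rapamycin replicate 1 of this guide has no DMSO partner. In replicate 2, its only pair, NFE2 had 0.34, LMO2 0.19, GATA1 0.11 and ZFPM1 0.09. GFI1B had 0.07, TAL1 0.06 and LYL1 0.06, so LYL1 changed sign. LDB1 had -0.12, KLF1 -0.13 and GATA2 -0.18. Whether the rapamycin change differed between guides was tested as an interaction, in which the single non-targeting DMSO library takes its spread from the other groups. None of the members passed (edgeR, 0 at an unadjusted p under 0.05, and 0 and 0 by DESeq2), against 0.00422% of all genes. For NFE2 the change with the HBG1 sgRNA was 1.03 times that with the non-targeting sgRNA, with an interval of 0.815 to 1.29. For GATA1 it was 1.11 times (0.891 to 1.38), and for TAL1 0.894 times (0.716 to 1.12). The interval for GATA1 reaches above its own 1.24-fold change, so a difference between guides of that size is not excluded.

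Other genes of the same regulatory network were read from lists chosen with earlier results of these data known. Of 40 partners and cofactors, 38 were tested. With rapamycin and the HBG1 sgRNA 4 were higher and 1 lower, against 2.75% and 4.05% of all genes. The median log2 change of the 38 was -0.06, against 0.02 over all genes. FOXO3, a forkhead factor that supports red cell maturation, rose (log2 change 0.42, edgeR adjusted p 0.00901, and 0.0594 without HBG1 sgRNA DMSO replicate 2). KLF10, a zinc finger factor of the same family as KLF1, also rose (0.50, 0.00916), but not without DMSO replicate 3 (0.0505) or rapamycin replicate 3 (0.0644). E2F4, a cell cycle factor needed for red cell growth, fell by 0.37 (adjusted p 0.0129, and 0.0784 without rapamycin replicate 3). MAFF, a small MAF protein of the kind that pairs with NFE2 (0.62, 0.0360), and TCF4, an E protein of the kind that pairs with TAL1 (0.37, 0.0396), also rose, and both were named with their values known. Untested log2 changes with the non-targeting sgRNA were 0.80 for FOXO3, 0.65 for KLF10, -0.45 for E2F4, 0.37 for MAFF and 0.29 for TCF4. With pairing of the HBG1 sgRNA libraries 5 were higher and 4 lower, against 7.43% and 9.62% of all genes. The additional calls, also named afterwards, were SSBP3, a stabiliser of LDB1 (log2 change 0.20 in the fit without pairing, adjusted p 0.0276 with it), and the lower TCF3 (-0.21, 0.0240), MTA2 (-0.23, 0.0132) and CHD4 (-0.19, 0.0284). TCF3 is another E protein partner of TAL1, and MTA2 and CHD4 are NuRD subunits that ZFPM1 recruits.

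Erythroid target genes of these factors moved upward more often than downward. Leaving out the members on that list, 39 were tested. With the HBG1 sgRNA 9 were higher and 1 lower, against 2.75% and 4.05% of all genes. The median log2 change was 0.12, against 0.02 over all genes, and 31 of the 39 were above 0. With pairing 17 were higher and 1 lower, against 7.43% and 9.62% of all genes. Untested changes with the non-targeting sgRNA had a median of 0.20, against 0.03 over all genes, and 34 of the 39 were above 0. The 3 lowest p-values belonged to DMTN, an actin-binding membrane skeleton protein, which went from 29.8 ± 2.46 to 48.7 ± 7.45 CPM (SD, n = 3 each, log2 change 0.71, edgeR adjusted p 0.00156), and to ICAM4 and PPOX. ICAM4, a red cell adhesion protein, had 0.64 (adjusted p 0.00270), and PPOX, a haem synthesis enzyme, had 0.64 (0.00941, and 0.0594 without HBG1 sgRNA DMSO replicate 2). The single lower gene was TFRC, the transferrin receptor, at -0.28 (adjusted p 0.0183), named with its value known. Under the non-targeting sgRNA the untested log2 changes were 0.59 for DMTN, 0.60 for ICAM4, 0.60 for PPOX and -0.13 for TFRC.

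Markers of other lineages moved in part with the treatment. The summed CPM of 14 megakaryocytic markers was 522 to 601 in HBG1 sgRNA DMSO libraries and 667 to 692 under rapamycin, and 557 and 656 to 687 with the non-targeting sgRNA. Most of it is GP1BB, at 413 to 555 CPM. Of the 6 tested genes TUBB1 rose with the HBG1 sgRNA (0.57, edgeR adjusted p 0.00699), against 6.80% of all genes called. Its untested change with the non-targeting sgRNA was 1.16. With pairing 4 passed, against 17.1% of all genes. They were TUBB1 and, named with their values known, GP6, GP1BB and ITGA2B. Myeloid markers summed to 41.1 to 44.0 CPM under DMSO and 48.8 to 59.1 CPM under rapamycin with the HBG1 sgRNA, and 43.3 and 34.7 to 51.5 CPM with the non-targeting sgRNA. None of the 11 tested myeloid markers was called (edgeR, 2 at an unadjusted p under 0.05, and 0 and 0 by DESeq2). With pairing 1 was higher (7.43% of all genes were), the lysozyme gene LYZ (adjusted p 0.0274), named with its value known. The 15 erythroid markers include HBG1 and HBG2. With the HBG1 sgRNA 5 were higher and 1 lower, against 2.75% and 4.05% of all genes. With pairing 10 were higher and 1 lower, against 7.43% and 9.62% of all genes. The erythroid markers summed to 30584 to 41120 CPM under DMSO and 38760 to 53184 CPM under rapamycin with the HBG1 sgRNA. With the non-targeting sgRNA they summed to 44080 CPM and 51564 to 55873 CPM. Among them HBG2 rose with the HBG1 sgRNA (log2 change 2.67, edgeR adjusted p 2.21e-05), while its untested change with the non-targeting sgRNA was 0.09. ALAS2, the first enzyme of erythroid haem synthesis, rose by 0.67 with the HBG1 sgRNA (edgeR adjusted p 0.0127, and 0.0761 and 0.0686 without DMSO replicate 2 or 3). Its untested change with the non-targeting sgRNA was 0.78. Several of the 10 members, called or not, are also expressed in megakaryocytic cells. The part of these markers in the members' changes was not tested.

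**Figure D5:**
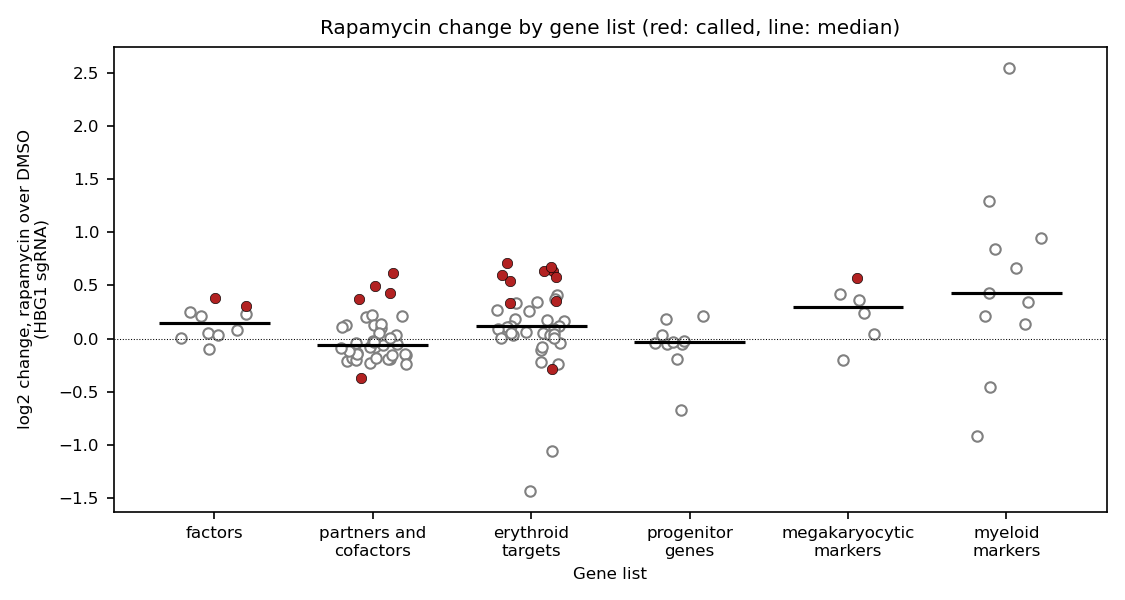
Log2 rapamycin change with the HBG1 sgRNA (y axis) of each tested gene by list, members left out of the other lists, with red for genes called at adjusted p under 0.05 and a line at each median. The factors have a median of 0.15 and the erythroid targets of 0.12, while partners and cofactors have -0.06 and progenitor genes -0.03. The 6 megakaryocytic markers have a higher median, 0.30. So do the 11 myeloid markers, 0.43, at a median level of 0.87 CPM in HBG1 sgRNA DMSO libraries.

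The genes whose pattern over the 9 libraries was closest to that of a called member were found by the root mean square difference of centred log2 CPM over 11455 genes. For GATA1 they were HINT2, RSRP1 and RGPD2 (differences of 0.046, 0.047 and 0.047, against a median of 0.23 over all candidates). For NFE2 they were NARF, RNF5 and NPRL3 (0.043, 0.048 and 0.050, against a median of 0.27). Libraries of 1 replicate number also deviate together, so this is a description of likeness only.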

How the data were processed

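The authors deposited raw read counts by Ensembl gene ID for all libraries in a single table, whose columns were matched to samples by the description label. Per the submitters' processing notes the authors used builds GRCh38 and hg38 and the tools STAR 2.7.3a, featureCounts, Subread 2.0.0, R 4.1.2, limma 3.34.9 and edgeR 3.24.0. Annotation release, strand setting and handling of reads that map to several places are not given in the sources used here. Per the labels' protocols, poly-T selected RNA was prepared with a NEBNext Ultra kit.

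Symbols, positions and exon lengths came from GENCODE 29 (99.5% of 58347 IDs matched). Tests used edgeR 4.0.16 (R 4.3.3): filterByExpr at its minimum count of 10 (23675 genes kept), TMM scaling, and 1 quasi-likelihood fit of all 9 libraries with 1 mean per group. Calls are at a Benjamini-Hochberg adjusted p under 0.05 over all tested genes. Intervals are 95% intervals of that fit. CPM are TMM-scaled. The code was tested on simulated data. DESeq2 1.42.0, other scalings, no filter, pairing, an additive model and leaving out each library were alternatives.

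Replicate numbers were taken to pair the HBG1 sgRNA libraries, since every same-numbered pair had a correlation above 0.1. Over 11498 genes, a library's deviation from its group mean had a correlation with that of its same-numbered partner of 0.553 (replicate 1), 0.278 (replicate 2) and 0.231 (replicate 3). Between rapamycin replicate 2 and DMSO replicate 3 it was 0.258, above that of the replicate 3 pair. Between rapamycin replicate 3 and DMSO replicate 2 it was 0.194, also above 0.1. Between replicate 1 and either of the others it was negative. The check thus sets replicate 1 apart but does not tell 2 from 3, whose pairing rests on the replicate numbers in the labels. The paired p-values depend on that pairing. Paired fits take the replicate number as a block in those 6 libraries.

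All 10 members are named. From each other list the rule was to name up to 3 called genes with the lowest p. For called members it was to name the 3 genes of closest pattern whose mean log2 CPM is 3 or more. Any other list genes in the text were named with their values known. The members and lists were chosen with earlier results of these data known.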

Additional observations from a re-analysis of the deposited data

How the results depend on the processing

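No group holds more than 3 libraries, which limits every value here. The rapamycin test with the HBG1 sgRNA called 1609 genes and 2 members. DESeq2 called 2093 genes and 3 members, upper-quartile scaling 1492 and 3, and no filter 2156 and 2. With the replicate block it called 3441 genes and 4 members, and in the additive model 3263 genes and 4 members. Leaving out libraries one at a time gave 664 to 1731 genes and 0 to 3 members. A fit without replicate 1 of both HBG1 sgRNA groups, chosen after seeing the data, called 2110 genes and 3 members. NFE2, GATA1, LMO2, GFI1B, ZFPM1 and LYL1 kept a positive value and GATA2 a negative one under all 17 alternatives. The test between guides called 7 genes, and 91 with no filter, 13 by DESeq2, 13 in the additive model, 21 with the replicate block and 3 to 8 with a library left out. The interaction called 1 gene, and 8 with no filter, 0 by DESeq2, 3 with a replicate block over 9 libraries, 5 with a replicate block within each guide and 0 to 4 with a library left out. No member was called in either test under any of these. With pairing, the calls of LMO2 and GFI1B were the only ones among members to change.

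Values near 0 changed sign in some fits, none of them called. For rapamycin with the HBG1 sgRNA, leaving out libraries gave -0.058 to 0.15 for KLF1, -0.013 to 0.077 for TAL1 and -0.062 to 0.078 for LDB1, which was -0.019 in the additive model. Between guides the ranges were -0.022 to 0.054 for GATA2, -0.011 to 0.10 for LMO2, -0.083 to 0.056 for LDB1, -0.041 to 0.075 for NFE2, -0.13 to 0.14 for ZFPM1, -0.091 to 0.16 for GFI1B and -0.024 to 0.21 for LYL1. The additive model gave -0.026 for GATA2 and -0.0038 for ZFPM1 and the replicate block 0.027 for LDB1. In the interaction the ranges were -0.038 to 0.14 for NFE2, -0.084 to 0.18 for ZFPM1 and -0.090 to 0.16 for GFI1B. The interaction could not be fitted without the single non-targeting DMSO library. The cause was not tested.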

Other observations

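Progenitor genes that GATA2 and its early partners are known to maintain were read from a list of 18. Of these, 10 genes other than the members were tested. With the HBG1 sgRNA none was called for rapamycin by edgeR, against 6.80% of all genes. At an unadjusted p under 0.05 edgeR had 1, against 20.8% of all genes. DESeq2 called 0 and had 1 at an unadjusted p under 0.05. The median log2 change was -0.03, against 0.02 over all genes. MYB, a regulator of progenitor growth, had -0.04 (edgeR adjusted p 0.876), KIT, the stem cell factor receptor, 0.04 (0.949), and MYC 0.19 (0.150, and 0.0315 with pairing). KIT was low, at a mean of 4.50 CPM over the libraries, and its log2 change had an SE of 0.21. MYB, KIT and MYC were named after their values were seen.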
